A study of Mus musculus with 32 samples.

Results

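The endothelin and angiotensin systems of the mouse atrium were followed through 9 genes chosen by name: Edn1 and Edn3 (endothelin peptides), Ece1 (endothelin converting enzyme), Ednra and Ednrb (endothelin receptors), Agt (angiotensinogen), Ace (angiotensin converting enzyme), Agtr1a (an angiotensin receptor) and Nr3c2 (the mineralocorticoid receptor). Of these 9 genes, 8 were paired with a probe set, out of 19938 named genes on the array, and all 8 passed the filter on dim genes. Ednra was not analysed here. Each gene was represented by 1 probe set, so levels are compared between animals and never between genes.

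Each atrium of 16 mice was hybridised to an array of its own, and 4 animals represented each of 4 genotypes bred from the C57BL/6 and FVB/N strains. Ntg animals carried no transgene, dnPI3K animals a dominant negative phosphoinositide 3-kinase, Mst1 animals the kinase of that name (mammalian sterile 20-like kinase 1), and double transgenic animals (dnPI3K-Mst1) carried both. All were kept on standard chow and a daily light and dark cycle. The promoter that drives each transgene, the number of founder lines and the animals' age and sex are not given in the sources used here, and neither is a date or batch of the arrays. PI3K signalling favours growth and survival of cardiac myocytes, and Mst1 is a Hippo pathway kinase that can restrain growth and promote cell death. Stk4, the gene that encodes Mst1, was 0.71 log2 higher in Mst1 than in Ntg and 0.79 higher in dnPI3K-Mst1 (limma, adjusted p = 3.3e-06 and 6.7e-07), and 0.07 higher in dnPI3K (adjusted p = 0.77). The probe set does not tell a transgene from the animal's own gene.

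Endothelins are short peptides cut from larger precursors, the last step being made by converting enzymes such as Ece1. They act on receptors of the A type, found on smooth muscle and myocytes, and of the B type, found on endothelium among other cells, which also clears the peptide. In the angiotensin system renin cuts angiotensinogen and Ace then forms the active peptide, which acts on type 1 receptors to constrict vessels and release aldosterone, and aldosterone binds the mineralocorticoid receptor. Both systems signal in the heart itself as well as in the circulation, and Edn1 is commonly raised in strained cardiac tissue.

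The promoters of Edn1, Ace and Agt are shown because Edn1 and Ace rose and Agt fell in both genotypes with the Mst1 transgene. Each stretch is the 250 bases before the annotated start, from RefSeq, build GRCm38.p6, written 5′ to 3′ on the strand of the gene. Edn1 lies at chr13:42301226-42301475 on the plus strand, Ace at chr11:105967698-105967947 on the plus strand and Agt at chr8:124569707-124569956 on the minus strand. Capitals mark matches, on either strand, to the motifs searched, which were the letters TGACTNA for AP-1, then GGAATG for the TEAD factors, then AGATAA for the GATA factors, then ACGTG for the hypoxia response, then GTAAACA for the FoxO factors and finally TATAAA for the TATA box.
Edn1: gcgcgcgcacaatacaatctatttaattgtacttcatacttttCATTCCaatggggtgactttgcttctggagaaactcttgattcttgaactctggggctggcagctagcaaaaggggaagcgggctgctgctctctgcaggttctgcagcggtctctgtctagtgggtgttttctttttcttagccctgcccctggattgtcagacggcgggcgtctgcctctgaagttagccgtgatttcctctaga
Ace: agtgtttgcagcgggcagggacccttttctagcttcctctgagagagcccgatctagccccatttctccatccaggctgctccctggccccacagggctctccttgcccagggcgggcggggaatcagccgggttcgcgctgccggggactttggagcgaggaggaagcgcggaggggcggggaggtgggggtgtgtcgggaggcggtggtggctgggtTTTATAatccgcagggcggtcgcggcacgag
Agt: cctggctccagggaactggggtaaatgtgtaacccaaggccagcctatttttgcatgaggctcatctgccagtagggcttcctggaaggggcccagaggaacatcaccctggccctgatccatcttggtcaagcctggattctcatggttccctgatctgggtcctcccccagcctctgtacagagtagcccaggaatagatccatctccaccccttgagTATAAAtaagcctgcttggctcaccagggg
The only match in the Edn1 stretch was to the TEAD motif on the reverse strand, whose first base lay 207 bases before the start. Ace and Agt each held 1 match, to the TATA box letters, on the reverse strand 31 bases before the start for Ace and on the forward strand 30 bases before it for Agt. Of 32817 RefSeq promoter stretches of this length, 12.6% held the TEAD letters and 12.4% those of the TATA box, while 11.7% held AP-1, 9.99% GATA, 16.6% hypoxia response and 3.16% FoxO letters. These matches describe the sequence only.

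Values below are log2 signals. An animal's value is the mean of its 2 atria, and animals are listed in the order of their numbers (Ntg 1301, 1657, 1662 and 1834; dnPI3K 1507, 1648, 1660 and 3241; Mst1 1466, 1838, 1839 and 1840; dnPI3K-Mst1 1509, 1647, 1649 and 1650). Genotypes were compared with limma over 15219 genes, with p-values adjusted by the Benjamini-Hochberg method and a gene called at an adjusted p under 0.05. All 3 comparisons with Ntg share the same 4 control animals. These p-values rest on how the sampled animals vary. Atria are mixed tissue, so fewer cells of a type and less RNA per cell cannot be told apart in any value that follows.

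The side labels need a caution before any result by atrium. Bmp10, a gene confined to the right atrium of the adult mouse heart, split the 2 arrays of every animal, with 11.4 to 12.8 log2 on one and 3.77 to 6.64 on the other. The array with the higher level was labelled left in 13 of 16 animals, that is 2 of 4 Ntg, 4 of 4 dnPI3K, 3 of 4 Mst1 and 4 of 4 dnPI3K-Mst1 animals. The labelled sides of Ntg and Mst1 are therefore mixtures by this gene, and those of dnPI3K and dnPI3K-Mst1 are reversed by it. Whether the labels are wrong was not tested. Means over both atria do not depend on the label. Over the series, array medians lay between 5.51 and 5.68, and 4 arrays, of Mst1 1466, dnPI3K 3241, dnPI3K 1507 and Ntg 1662, had a mean correlation with the others under 0.97. The fat cell gene Adipoq stood at 7.85 on 1 array of Ntg 1301 and 7.79 on 1 of dnPI3K-Mst1 1650, against at most 5.72 elsewhere.

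Of the 8 genes, 6 were called in Mst1 against Ntg, where 26.8% of all genes were called, 6 in dnPI3K-Mst1 against Ntg (30.6% of all genes) and 3 in dnPI3K against Ntg (4.05% of all genes). Edn1 and Ace rose and Ednrb, Agt, Agtr1a and Nr3c2 fell in both genotypes with Mst1. Edn1 rose and Ednrb and Agt fell in dnPI3K alone. The median over the 8 genes was -0.45 in Mst1, -0.20 in dnPI3K-Mst1 and -0.02 in dnPI3K against Ntg, beside medians over all genes of -0.00, 0.02 and -0.00. The 8 genes were picked with earlier results of these data in view, and they moved both ways.

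**Figure D1:**
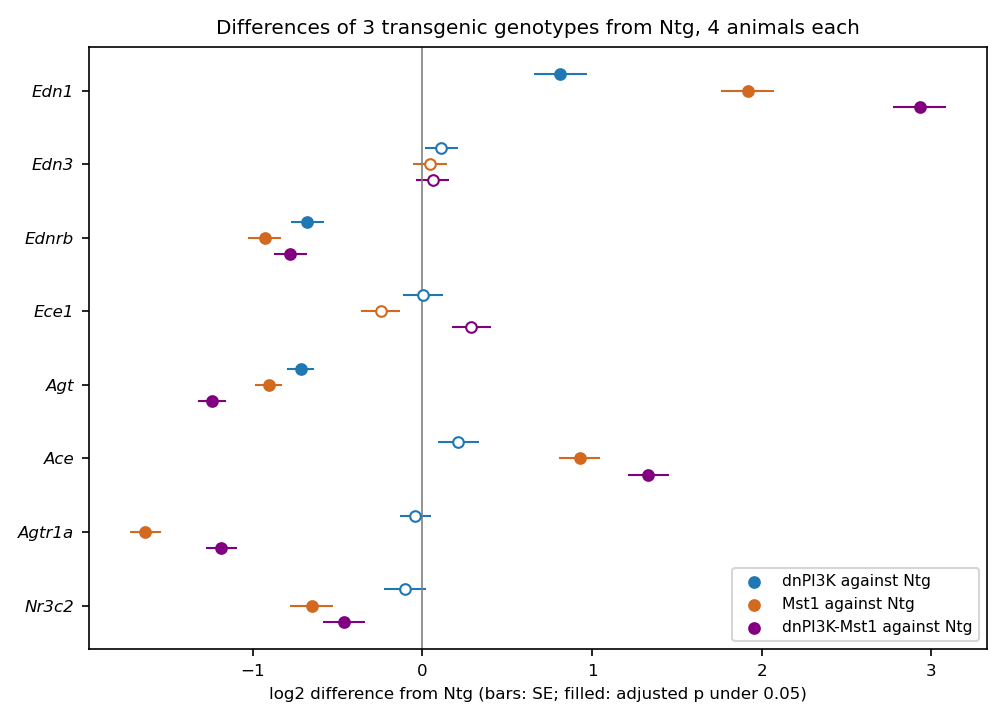
Differences of the 3 transgenic genotypes from Ntg for each of the 8 genes, on the x axis in log2 with bars of 1 SE, filled where the adjusted p was under 0.05. Edn1 runs from 0.81 in dnPI3K to 2.93 in dnPI3K-Mst1, Agtr1a sits at -1.63 in Mst1 and -0.04 in dnPI3K, and Edn3 stays near 0 in all 3.

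Edn1, the ligand made by endothelium and by strained myocytes, changed more than any other of the 8 genes in dnPI3K-Mst1. It stood at 6.16, 6.04, 6.35 and 5.64 in the Ntg animals and at 7.01, 7.04, 6.60 and 6.79 in dnPI3K. The Mst1 animals had 7.54, 8.24, 7.90 and 8.18, and the dnPI3K-Mst1 animals 9.07, 9.14, 8.72 and 8.98. The 4 genotypes formed 4 steps with no overlap between any of them. Non-overlap between 4 and 4 animals was seen for 11.4% of all genes for dnPI3K, 25.8% for Mst1 and 33.5% for dnPI3K-Mst1, each against Ntg. Shares between transgenic genotypes are not given here, for Edn1 or for the genes below.

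Edn1 was 1.76-fold higher in dnPI3K than in Ntg (0.81 ± 0.16 log2, SE, limma adjusted p = 0.0044), 3.78-fold higher in Mst1 (1.92 ± 0.16, 2.6e-08) and 7.63-fold higher in dnPI3K-Mst1 (2.93 ± 0.16, 7.3e-11). Each step between neighbours passed the test as well: Mst1 stood 1.11 log2 above dnPI3K (adjusted p = 3.1e-05) and dnPI3K-Mst1 1.01 above Mst1 (adjusted p = 0.0010). The effect of both transgenes together departed from the sum of their single effects by 0.20 ± 0.22 log2 (adjusted p = 0.82). Nppb, the natriuretic peptide gene that marks strain on the heart wall, also rose in all 3 genotypes, by 1.51 in Mst1, by 1.20 in the double transgenic animals and by 0.86 in dnPI3K (limma adjusted p = 9.8e-07, 1.1e-05 and 0.0045). Its order differed from that of Edn1, and the Nppb values of Mst1 and dnPI3K-Mst1 overlapped.

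Edn3, a peptide that prefers the B receptor, lay between 4.93 and 5.36 in all 16 animals. Its means were 5.09 in Ntg and 5.21, 5.14 and 5.16 in the dnPI3K, Mst1 and double transgenic animals, and no comparison was called (differences from Ntg of 0.11, 0.05 and 0.06, each with an SE of 0.10, n = 4). The probe set was dim, at the 35.2 percentile of named genes, so small changes were not detectable here.

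Ece1, which releases the active endothelin peptide, was not called against Ntg in any genotype. Its means were 9.17 ± 0.16, 9.18 ± 0.14, 8.93 ± 0.28 and 9.46 ± 0.09 (SD, n = 4) in Ntg, dnPI3K, Mst1 and dnPI3K-Mst1. The lowest Mst1 value, 8.51, belonged to animal 1466, whose left array stands apart. The dnPI3K-Mst1 animals, at 9.49, 9.54, 9.34 and 9.48, all lay above the highest Ntg animal (9.34 to 2 decimals, a near tie), yet the difference of 0.29 ± 0.12 missed the threshold (limma adjusted p = 0.069). It passed without the 4 animals that hold an array apart (0.23, adjusted p = 0.029), without Ntg 1301 (0.34, 0.048) and without Mst1 1466 (0.29, 0.011). Quantile normalization (0.29, 0.039), array weights (0.25, 0.022) and mean Bmp10 as a covariate (0.33, 0.048) also let it pass. So did a fit of those 2 genotypes alone (0.29, 0.021) and the arrays with the lower Bmp10, given below. It missed the threshold under the rest of 32 other settings. Against Mst1, Ece1 rose by 0.54 ± 0.12 in dnPI3K-Mst1 (limma adjusted p = 0.014). That call was lost when Mst1 and dnPI3K-Mst1 were fitted alone (adjusted p = 0.052). It was also lost on arrays labelled left (adjusted p = 0.37), labelled right (0.14) or with the higher Bmp10 (0.41). On arrays with the lower Bmp10 it held (0.61 log2, adjusted p = 0.015).

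Ednrb, the B type receptor, fell in every transgenic genotype. The Ntg animals had 8.30, 8.47, 8.16 and 7.97. The dnPI3K animals had 7.61, 7.49, 7.63 and 7.47, the Mst1 animals 7.51, 7.29, 7.17 and 7.23, and the dnPI3K-Mst1 animals 7.53, 7.48, 7.39 and 7.41. All 12 transgenic animals lay below all 4 Ntg animals, while the 3 transgenic genotypes overlapped.

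Against Ntg, Ednrb fell by 0.68 ± 0.10 log2 in dnPI3K (SE, limma adjusted p = 0.00029). It fell by 0.93 ± 0.10 in Mst1 (adjusted p = 6.0e-07) and by 0.78 ± 0.10 with both transgenes (adjusted p = 3.9e-06). Mst1 stood 0.25 below dnPI3K, which missed the threshold (adjusted p = 0.075). Of the Mst1 animals, 1466, which holds an array apart, was the one that overlapped with dnPI3K. The difference passed without it (-0.32, adjusted p = 0.016), without Ntg 1834 (-0.25, 0.049), with array weights (-0.33, 0.0044) and on the arrays with the lower Bmp10 (-0.39, 0.047). The 2 transgenes together lowered Ednrb by less than the sum of their single effects, the departure being 0.83 ± 0.14 log2 (adjusted p = 0.0055). Only 1 of the 8 genes was called for this departure from a sum, against 0.513% of all genes. The call was lost on the array with the lower Bmp10 of each animal (0.77, adjusted p = 0.10) and held on the other (0.89, adjusted p = 0.045). Agt (0.38, adjusted p = 0.16), Agtr1a (0.49, 0.10) and Ece1 (0.53, 0.19) also had positive departures, none of which passed the test. That of Agtr1a was 0.79 on the arrays with the lower Bmp10, where it was called (adjusted p = 0.049), and 0.18 on the others (adjusted p = 0.77). It also passed with array weights (0.45, adjusted p = 0.048) and without dnPI3K 1648 (0.57, adjusted p = 0.045).

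Agt, the precursor of all angiotensin peptides, fell stepwise. It stood at 7.01, 7.27, 7.10 and 7.04 in Ntg and at 6.40, 6.44, 6.47 and 6.25 in dnPI3K. The Mst1 animals had 6.08, 6.22, 6.19 and 6.33, and the dnPI3K-Mst1 animals 5.98, 5.92, 5.76 and 5.82. Every transgenic animal lay below every Ntg animal, dnPI3K and Mst1 overlapped, and dnPI3K-Mst1 lay below both.

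Agt was 1.64-fold lower in dnPI3K than in Ntg (-0.72 ± 0.08 log2, SE, limma adjusted p = 2.3e-05), 1.87-fold lower in Mst1 (-0.91 ± 0.08, 8.5e-08) and 2.36-fold lower in dnPI3K-Mst1 (-1.24 ± 0.08, 1.2e-09). The difference between Mst1 and dnPI3K, -0.19 ± 0.08, did not pass (adjusted p = 0.11). The further fall from Mst1 to dnPI3K-Mst1, -0.33 ± 0.08, passed at an adjusted p of 0.026 and was lost without any 1 of Mst1 1838, 1839 or 1840 or dnPI3K-Mst1 1649 or 1650 (adjusted p of 0.066, 0.067, 0.082, 0.073 and 0.068). The fall from dnPI3K to dnPI3K-Mst1 was -0.52 (adjusted p = 9.5e-05).

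Ace, which forms the active angiotensin peptide and also breaks down bradykinin, moved the other way. The Ntg animals had 8.34, 7.83, 8.01 and 7.73 and the dnPI3K animals 8.33, 8.28, 8.11 and 8.05, so that these genotypes overlapped. The Mst1 animals had 8.77, 9.05, 8.77 and 9.03 and the dnPI3K-Mst1 animals 9.13, 9.53, 9.34 and 9.25. Every animal with the Mst1 transgene exceeded every animal without it.

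Ace was 1.90-fold higher in Mst1 than in Ntg (0.93 ± 0.12 log2, SE, limma adjusted p = 8.3e-06) and 2.52-fold higher in dnPI3K-Mst1 (1.33 ± 0.12, 8.1e-08). In dnPI3K the difference was 0.21 ± 0.12 (adjusted p = 0.41). On arrays labelled right, which in Ntg but not in dnPI3K mix the atria by Bmp10, it was 0.81 and called (adjusted p = 0.0090), while it was 0.09 on arrays with the higher Bmp10 (adjusted p = 0.86) and 0.33 on those with the lower (adjusted p = 0.16). The step from Mst1 to dnPI3K-Mst1, 0.41 ± 0.12, did not overlap but missed the threshold (adjusted p = 0.069), and it passed without Ntg 1301 (0.41, adjusted p = 0.036). Over the 16 animal means Ace and Edn1 had a Pearson correlation of 0.96, which describes their shared order over genotypes.

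Agtr1a, the main type 1 angiotensin receptor of the mouse, separated the genotypes by Mst1. The Ntg animals had 7.21, 7.17, 7.28 and 7.06 and the dnPI3K animals 7.00, 7.38, 7.13 and 7.03. The Mst1 animals had 5.42, 5.74, 5.50 and 5.52 and the dnPI3K-Mst1 animals 6.05, 5.83, 6.07 and 6.03. The first 2 genotypes overlapped, dnPI3K-Mst1 lay below both and Mst1 lay lowest, with no animal shared between the steps.

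Agtr1a was 3.10-fold lower in Mst1 than in Ntg (-1.63 ± 0.09 log2, SE, limma adjusted p = 2.3e-10) and 2.27-fold lower in dnPI3K-Mst1 (-1.18 ± 0.09, 1.2e-08). In dnPI3K the difference was -0.04 ± 0.09 (adjusted p = 0.88). Adding dnPI3K to Mst1 raised the level by 0.45 ± 0.09 (adjusted p = 0.0097), against the direction of the Mst1 change. On the array with the higher Bmp10 alone this rise was 0.49 (adjusted p = 0.060) and on the other 0.41 (adjusted p = 0.071). Agtr1b is a close copy of Agtr1a and was not analysed here, so a part of the signal could come from it.

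Nr3c2, the receptor of aldosterone, had means of 7.94 ± 0.20 in Ntg and 7.84 ± 0.17 in dnPI3K, against 7.29 ± 0.10 in Mst1 and 7.48 ± 0.27 with both transgenes (SD, n = 4). The Mst1 animals lay between 7.19 and 7.41, below all Ntg animals (7.68 to 8.16). The dnPI3K-Mst1 animals spread from 7.09 to 7.71 and overlapped with Ntg. Nr3c2 fell by 0.65 ± 0.12 log2 in Mst1 (limma adjusted p = 0.00048) and by 0.46 ± 0.12 in dnPI3K-Mst1 (adjusted p = 0.0076), and in dnPI3K the difference was -0.10 ± 0.12 (adjusted p = 0.75). Against dnPI3K it fell in Mst1 by 0.55 (adjusted p = 0.0028). The fall from dnPI3K to dnPI3K-Mst1, -0.36, passed at an adjusted p of 0.045 and was lost under 19 of 32 other settings.

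Between the transgenic genotypes, 4 of the 8 genes were called in dnPI3K-Mst1 against Mst1 (Edn1, Ece1 and Agtr1a higher, Agt lower), where 3.5% of all genes were called. In dnPI3K-Mst1 against dnPI3K 5 were called (Edn1 and Ace higher, Agt, Agtr1a and Nr3c2 lower; 21.6% of all genes), and in Mst1 against dnPI3K 4 (Edn1 and Ace higher, Agtr1a and Nr3c2 lower; 21.9% of all genes).

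**Figure D2:**
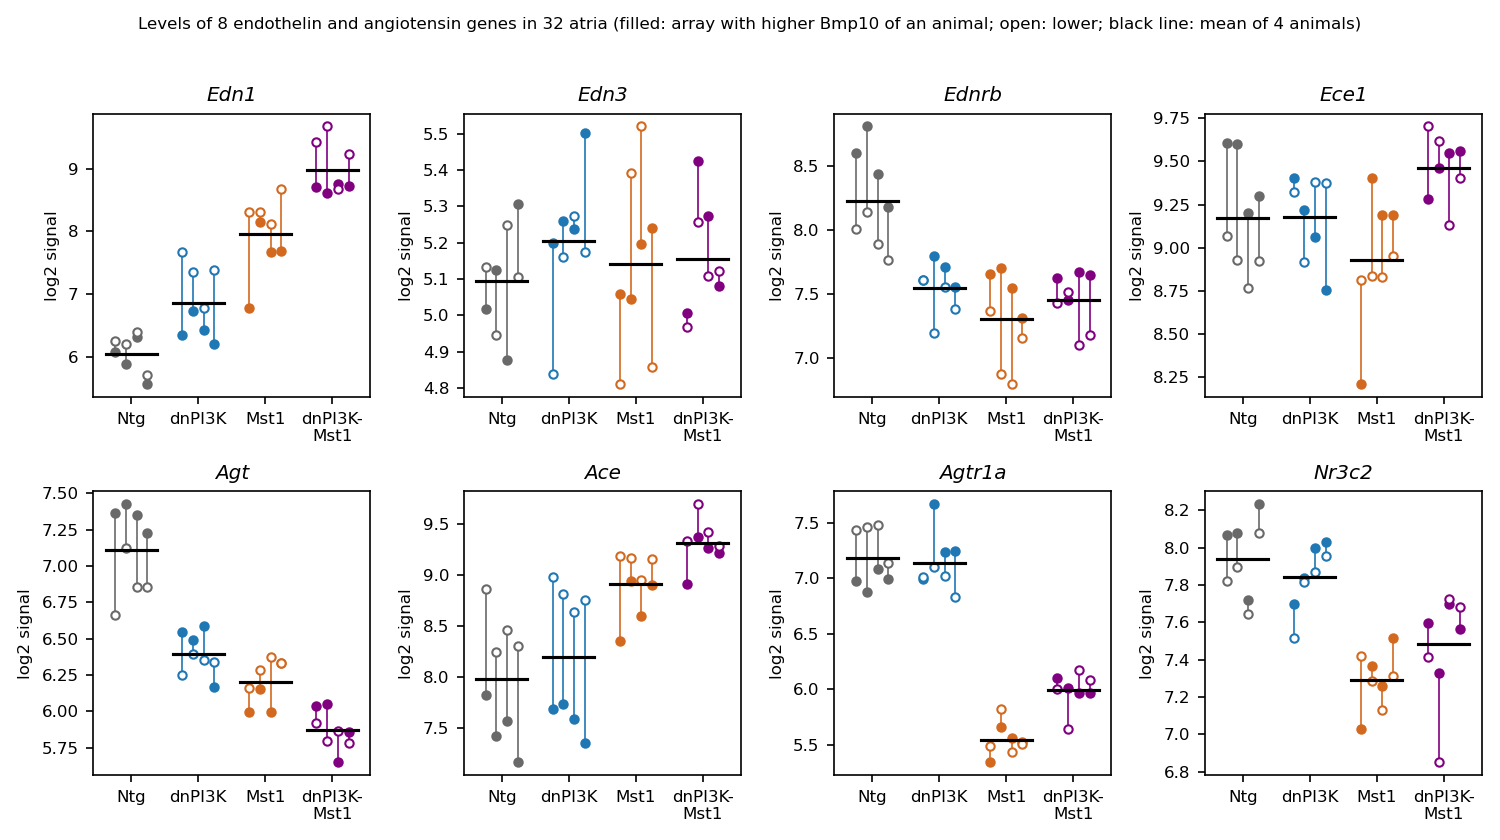
Log2 signal (y axis, a separate scale for each gene) on all 32 arrays by genotype, with the 2 arrays of an animal joined by a line, the array with the higher Bmp10 filled, the other open, and a black line at the mean of 4 animals. Edn1 climbs from a mean of 6.05 in Ntg to 8.98 in dnPI3K-Mst1, Ednrb drops from 8.23 to between 7.30 and 7.55, and the filled Ace points lie below the open ones in all 16 animals.

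By atrium as labelled, none of the 8 genes was called for right minus left over the 4 genotypes (limma; 0.00657% of all genes were called). Edn1 was nearest, with 0.51 ± 0.12 log2 (adjusted p = 0.088, unadjusted p = 0.00035) and a higher right array in 12 of 16 animals. Ace was higher on the right array in 13 of 16 animals (0.43 ± 0.13, adjusted p = 0.22), and Edn3 was lower there in 13 of 16 (-0.16 ± 0.06, adjusted p = 0.33). Edn1 passed without Mst1 1839 (0.59, limma adjusted p = 0.0028) or Ntg 1301 (0.53, adjusted p = 0.048), and without Ntg 1301 Ace passed as well (0.51, adjusted p = 0.046). Mst1 1839 and Ntg 1301 had the higher Bmp10 on the array labelled right, while 13 of 16 animals had it on the array labelled left. A higher value on the array labelled right is therefore not shown to be one of the right atrium. Within dnPI3K the array labelled right had the lower Bmp10 in all 4 animals, so the labels are reversed by this gene. Ace was 1.21 ± 0.26 higher on the array labelled right (limma adjusted p = 0.031, with 0.999% of all genes called). That call was lost without any 1 of the 4 dnPI3K animals, at 1.18, 1.25, 1.27 and 1.14 without 1507, 1648, 1660 and 3241 (adjusted p = 0.13, 0.078, 0.12 and 0.17). Its SE is shared over the 4 genotypes, and the labels of Ntg and Mst1 are mixtures by Bmp10. With all arrays ordered by Bmp10, as below, the same 4 dnPI3K animals gave -1.21 ± 0.10, higher minus lower Bmp10 (limma adjusted p = 3.2e-08).

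When the arrays of an animal were instead ordered by Bmp10, which is a choice made after seeing the data and is not the study's grouping, 3 of the 8 genes differed between them over the 4 genotypes (8.5% of all genes were called). Ace was 0.71 ± 0.05 log2 lower on the array with the higher Bmp10 (limma adjusted p = 6.5e-10), in 16 of 16 animals. Edn1 was 0.60 ± 0.09 lower (adjusted p = 7.1e-05), in 15 of 16 animals. Ednrb was 0.40 ± 0.06 higher (adjusted p = 5.8e-05), in 15 of 16 animals. Nr3c2 was higher there in 13 of 16 animals, the 8 Ntg and dnPI3K animals among them, by 0.10 ± 0.05, which missed the threshold (adjusted p = 0.30) and passed with array weights (0.14, adjusted p = 0.023). A fit of the slope on an animal's Bmp10 difference nearly restates this ordering and is no separate support. It called Ace, Edn1 and Ednrb (6.64% of all genes), with slopes of -0.09, -0.08 and 0.05 log2 per log2 of Bmp10 (adjusted p = 3.0e-05, 0.00045 and 0.00056), and that of Edn1 was lost with an intercept for the labelled side (-0.06, adjusted p = 0.056).

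The gap in Ace between the 2 atria was wide in the genotypes without Mst1 and narrow in those with it. In the Ntg animals the array with the higher Bmp10 differed from the other by -1.04, -0.82, -0.90 and -1.14, and in dnPI3K by -1.30, -1.08, -1.05 and -1.41. In Mst1 the values were -0.83, -0.23, -0.36 and -0.26, and in dnPI3K-Mst1 -0.42, -0.32, -0.16 and -0.07. Mst1 1466, whose left array stands apart, was the 1 Mst1 animal within the Ntg range, and no dnPI3K-Mst1 animal reached it.

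The Ace gap shrank by 0.73 ± 0.14 log2 from Ntg to dnPI3K-Mst1 (limma test of the difference, adjusted p = 0.0070; 0.999% of all genes were called), by 0.97 ± 0.14 from dnPI3K to dnPI3K-Mst1 (adjusted p = 0.00044; 1.06% of all genes) and by 0.79 ± 0.14 from dnPI3K to Mst1 (adjusted p = 0.0038; 1.03% of all genes). From Ntg to Mst1 it shrank by 0.56 ± 0.14, which missed the threshold (adjusted p = 0.055) and passed without Mst1 1466 (0.70, adjusted p = 0.0075) or dnPI3K 3241 (0.56, adjusted p = 0.043). On the array with the higher Bmp10 Ace stood at 7.49 ± 0.28 in Ntg and 9.19 ± 0.19 in dnPI3K-Mst1, a difference of 1.70. On the other it stood at 8.47 ± 0.28 and 9.44 ± 0.18 (SD, n = 4), a difference of 0.97.

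Agt differed between the atria in Ntg, where it was higher on the array with the higher Bmp10 by 0.70, 0.30, 0.49 and 0.38. In Mst1 the same differences were -0.16, -0.13, -0.37 and -0.00, so that the 2 genotypes did not overlap. The share of all genes whose differences between the atria separate in this way is not given here. The difference between them, -0.64 ± 0.14, passed the test (limma adjusted p = 0.024; 1.17% of all genes were called) and was lost without Ntg 1301 (-0.56, adjusted p = 0.12), Ntg 1662 (-0.63, 0.059), Mst1 1838 (-0.65, 0.055) or Mst1 1839 (-0.57, 0.11). Ntg 1301 had the widest Agt difference of the Ntg animals. Its array with the lower Bmp10, which holds Adipoq at 7.85, had Agt at 6.67, the lowest of the 8 Ntg arrays, against 7.36 on its other array.

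Within single genotypes the other differences between the atria were called as follows. In Ntg 4 of the 8 genes were called (3.65% of all genes): Ace, Agt (0.47, limma adjusted p = 0.0070), Ednrb (0.56, 0.0066) and Agtr1a (-0.40, 0.043), and the last 3 of these were each lost without some animals. The Agt call was lost without Ntg 1301 (0.39, adjusted p = 0.096), the Ednrb call without Ntg 1657 (0.52, 0.057), and that of Agtr1a without Ntg 1301, 1657 or 1662 (adjusted p = 0.20, 0.28 and 0.13), Mst1 1838, 1839 or 1840 or dnPI3K-Mst1 1509 (0.051, 0.051, 0.051 and 0.057). In dnPI3K 2 were called (4.8% of all genes), Ace and Edn1 (-0.87, adjusted p = 0.0046), the latter lost without dnPI3K 1507 (-0.72, 0.061). In Mst1 3 were called (2.35% of all genes): Edn1 (-0.79, adjusted p = 0.019), Ace (-0.42, 0.022) and Ednrb (0.51, 0.022). Without Mst1 1466 the calls of Edn1 (-0.54, 0.23) and Ace (-0.28, 0.20) were lost. The Edn1 call was also lost without Mst1 1840 (-0.72, 0.10) and the Ace call without Mst1 1839 (-0.44, 0.079), and the Ednrb call was lost without Mst1 1838 (0.40, 0.19) or 1839 (0.42, 0.19). In dnPI3K-Mst1 none was called by limma (1.58% of all genes).

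**Figure D3:**
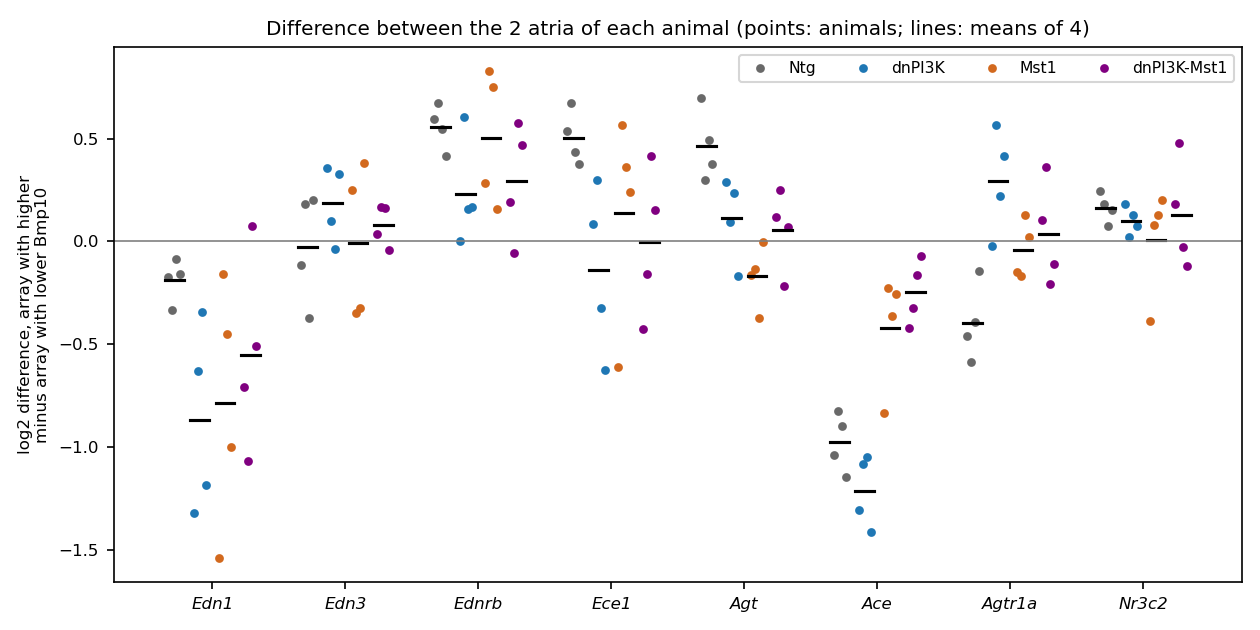
Log2 difference between the 2 atria of each animal (y axis, array with the higher minus array with the lower Bmp10) for the 8 genes, with a point per animal coloured by genotype and a black line at the mean of 4. The Ace points of Ntg and dnPI3K lie between -1.41 and -0.82, those of dnPI3K-Mst1 between -0.42 and -0.07, Edn3 points lie on both sides of 0, and 13 of 16 Nr3c2 points lie above it.

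The genotype differences of Edn1 held on both arrays of an animal for Mst1 and dnPI3K-Mst1, where they were 1.62 and 2.75 log2 on the array with the higher Bmp10 and 2.22 and 3.11 on the other. For dnPI3K against Ntg the rise was 0.47 on the array with the higher Bmp10 (limma adjusted p = 0.35) and 1.15 on the other (adjusted p = 0.0031). Ece1 in dnPI3K-Mst1 against Ntg was 0.04 higher on the former (adjusted p = 0.94) and 0.54 on the latter (adjusted p = 0.0021). Agt in Mst1 against Ntg fell by 1.22 on the former and by 0.59 on the latter, both called (adjusted p = 3.1e-07 and 8.9e-05).

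Cell type markers were compared between the genotypes as well. Counts of called markers here and in the next paragraph stand beside shares called over all genes. These were 26.8% in Mst1, 30.6% in dnPI3K-Mst1 and 4.05% in dnPI3K, each against Ntg. Endothelial markers, of a cell type that makes Edn1, Ace and Ednrb, were lower in Mst1 for 7 of 14 genes and higher for 1, and in dnPI3K-Mst1 lower for 2 and higher for 3. The 7 markers lower in Mst1 ran opposite to the rises of Edn1 and Ace there and the same way as the fall of Ednrb. Vwf, the 1 higher (0.43 log2), ran the other way, and in dnPI3K-Mst1 the called markers went both ways. The summed level of all 14 endothelial markers (log2 of the added signals) ranged over 13.05 to 13.29 in Ntg and 13.13 to 13.39 in dnPI3K. It ranged over 12.73 to 13.16 in Mst1 and 13.29 to 13.51 in dnPI3K-Mst1. Fibroblast markers were higher in Mst1 for 5 of 13 and in dnPI3K-Mst1 for 10 of 13, with 1 lower in each. Their summed level ranged over 13.83 to 14.19 in Ntg, 13.92 to 14.24 in dnPI3K, 14.26 to 14.29 in Mst1 and 14.39 to 14.69 in dnPI3K-Mst1. In this sum Ntg and dnPI3K overlapped, as they did in the summed level of every other marker list. The part of either cell type in the results was not tested.

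Smooth muscle and pericyte markers were higher for 4 and lower for 4 of 12 in Mst1, and higher for 6 and lower for 1 in dnPI3K-Mst1, with summed levels of 11.80 to 12.06 in Ntg, 11.82 to 12.29 in Mst1 and 12.32 to 12.47 in dnPI3K-Mst1. Cardiac myocyte markers were lower for 3 of 10 in Mst1 and for 5 of 10 in dnPI3K-Mst1, where 26.8% and 30.6% of all genes were called. The count in Mst1 is near its share over all genes. The part of myocytes in the falls of Agtr1a and Nr3c2 was not tested. The summed myocyte levels were 15.69 to 15.83 in Ntg, 15.39 to 15.71 in Mst1 and 15.47 to 15.67 in dnPI3K-Mst1. Of 7 measured adipocyte markers 2 lay below the filter on dim genes, and of the other 5, 3 were lower in Mst1 (Fabp4 at -0.51, Lipe at -0.55 and Plin1 at -0.67 log2) and 1, Fabp4, in dnPI3K-Mst1 (-0.51), beside the falls of Agt, a gene that fat cells also express. Of 7 mesothelial markers 3 were lower in Mst1 (Lrrn4 at -0.90, Upk3b at -0.89 and Wt1 at -0.46 log2). The summed adipocyte levels were 9.82 to 10.84 in Ntg, 9.66 to 9.95 in Mst1 and 9.44 to 10.42 in dnPI3K-Mst1, and the summed mesothelial levels 9.22 to 10.14 in Ntg and 8.54 to 9.46 in Mst1. In dnPI3K against Ntg 1 fibroblast marker was higher, and no endothelial, smooth muscle, myocyte, adipocyte or mesothelial marker was called. All markers of the endothelial, fibroblast, smooth muscle and myocyte lists, the myocyte markers of the labelled tissue included, passed the filter on dim genes. Between the atria, where 8.5% of all genes were called, 4 of 14 endothelial markers were higher on the array with the higher Bmp10. Of 13 fibroblast markers 5 were lower there and 1 higher. The medians of the endothelial and fibroblast lists were 0.09 and -0.15 log2. Edn1 and Ace, lower on that array, ran opposite to the endothelial markers called, and Ednrb, higher there, ran the same way. Macrophage markers moved most, 6 of 8 being higher and 1 lower on that array (median 0.33). The part of these cells was not tested.

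Of 74 other genes of these pathways tested, 1 was called in dnPI3K against Ntg, where 4.05% of all genes were called. The counts below stand beside 26.8% of all genes called in Mst1 and 30.6% in dnPI3K-Mst1. Among 11 further peptides and processing enzymes tested, 1 rose and 3 fell in Mst1 against Ntg (median -0.13), 1 fell in dnPI3K (median -0.01) and 1 rose and 2 fell in dnPI3K-Mst1 (median -0.09). Mme, the neprilysin gene whose product degrades endothelin and other peptides, fell by 1.53 in Mst1 and 1.01 in dnPI3K-Mst1 (limma adjusted p = 1.5e-05 and 0.00094). Enpep, an aminopeptidase that removes the first residue of angiotensin II, fell by 1.13 and 0.70 (adjusted p = 8.9e-08 and 2.2e-05). Atp6ap2, the prorenin receptor, rose by 0.54 and 0.61 (adjusted p = 0.0016 and 0.00046). Prcp, a carboxypeptidase of angiotensin peptides, fell by 0.50 in Mst1 and 0.42 in dnPI3K (adjusted p = 0.0030 and 0.047). From Mst1 to dnPI3K-Mst1 the aminopeptidase genes Anpep (0.62, adjusted p = 0.0056) and Enpep (0.43, 0.022) rose.

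Of 2 further receptor genes tested, none was called against Ntg by limma. In the mineralocorticoid arm 11 genes were tested. In Mst1 1 rose and 2 fell (median -0.06), in dnPI3K none was called (median 0.03) and in dnPI3K-Mst1 1 rose and 1 fell (median 0.03). Fkbp4, a chaperone partner of steroid receptors, fell by 0.44 in Mst1 and 0.61 in dnPI3K-Mst1 (limma adjusted p = 0.0036 and 0.00018). Fkbp5, a glucocorticoid responsive partner of the same receptors, rose by 0.69 in Mst1 (adjusted p = 0.019), and Hsd11b1, which regenerates active glucocorticoid, fell by 0.39 (adjusted p = 0.024). Sgk1, a kinase induced by aldosterone and glucocorticoids, rose by 0.42 in dnPI3K-Mst1 against Ntg and by 0.44 against Mst1 (adjusted p = 0.0072 and 0.036).

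Downstream of the receptors, 26 genes of Gq and G12/13 signalling were tested. In Mst1 7 rose and 3 fell (median 0.01), in dnPI3K none was called (median 0.01) and in dnPI3K-Mst1 6 rose and 1 fell (median 0.21), beside 26.8%, 4.05% and 30.6% of all genes called. Rgs2, which shuts off Gq, fell by 1.20 in Mst1 and 1.17 in dnPI3K-Mst1 (limma adjusted p = 4.9e-05 and 5.1e-05). Rcan1, a target and inhibitor of calcineurin, rose by 0.98 in Mst1 (adjusted p = 0.00044), and Rgs5, another brake on Gq that is rich in pericytes, fell by 0.88 there (adjusted p = 0.00053). Grk5, a kinase that desensitises receptors, rose by 0.84 and 0.70 (adjusted p = 1.7e-05 and 0.00011). Prkcd and Plcb1, a protein kinase C and a phospholipase C of the same route, rose in dnPI3K-Mst1 by 0.76 and 0.70 (adjusted p = 1.1e-05 and 1.5e-06).

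Of 24 other vasoactive genes tested, 4 rose and 6 fell in Mst1 (median 0.01), none was called in dnPI3K (median -0.04) and 6 rose and 2 fell in dnPI3K-Mst1 (median 0.04), again beside 26.8%, 4.05% and 30.6% of all genes. Calcrl, the receptor of adrenomedullin and related peptides, rose by 0.83 in dnPI3K-Mst1 against Ntg and by 0.91 against Mst1 (limma adjusted p = 2.0e-05 and 0.00025). Adm, which encodes adrenomedullin, rose by 0.69 in dnPI3K-Mst1 (adjusted p = 1.4e-05). The guanylyl cyclase subunits that sense nitric oxide moved apart in Mst1, Gucy1b1 rising by 0.63 and Gucy1a1 falling by 0.53 (adjusted p = 1.5e-05 and 0.00010). Nos3, the endothelial nitric oxide synthase, and Aplnr, the apelin receptor, fell by 0.53 and 0.63 in Mst1 (adjusted p = 0.0012 and 0.048), beside the lower endothelial markers of that genotype.

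**Figure D4:**
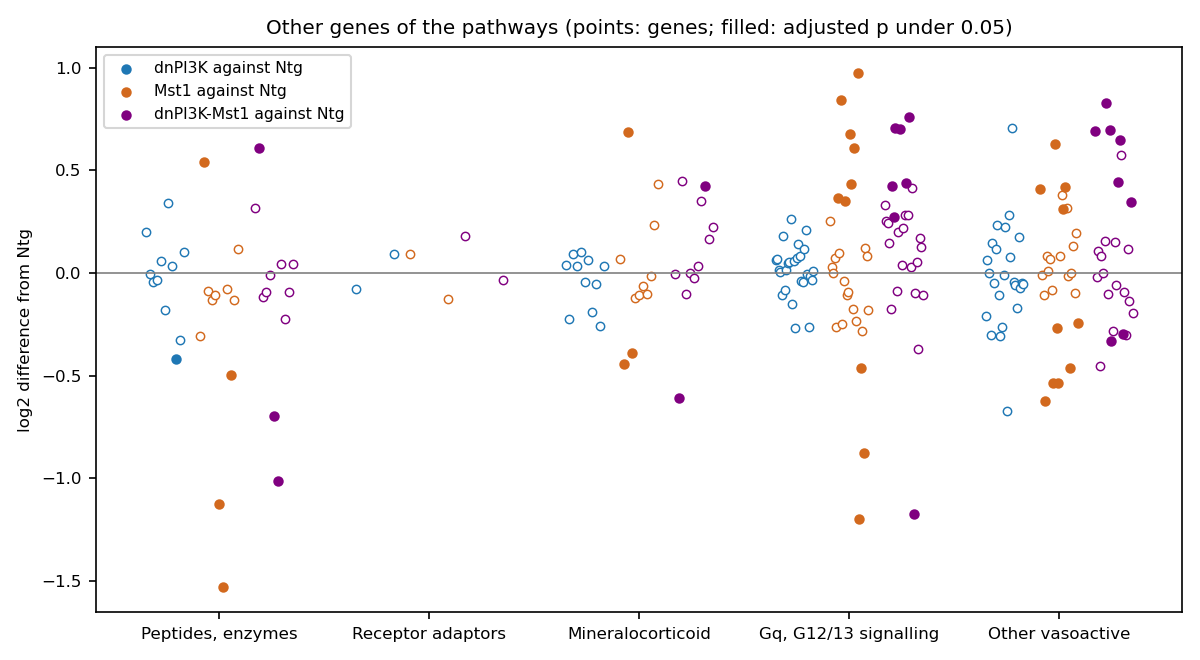
Log2 differences from Ntg (y axis) for 74 other genes of the pathways in 5 lists, with a point per gene coloured by genotype and filled where the adjusted p was under 0.05. Filled points of dnPI3K are confined to 1 gene of the first list, Prcp at -0.42, while the lowest points of Mst1 are Mme at -1.53 and Rgs2 at -1.20.

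The genes most like each member over the 16 animal means were found by Pearson correlation among the 15219 genes. They are a description, since animals share their genotypes. Edn1 was nearest to Sema3b, P4ha3 and Itgbl1 (0.98, 0.98 and 0.97), and Ace to Ltbp3, Cpne2 and Bgn (0.99, 0.98 and 0.98). Agtr1a was nearest to Slc9a2, Lmod3 and Slco1a4 (0.98, 0.97 and 0.97) and Agt to Nt5c1a, Trim72 and Pla2g5 (0.97, 0.96 and 0.95). Ednrb was nearest to Gstt1, Stc1 and Fam78a (0.97, 0.95 and 0.94), Ece1 to Aplp2, Bace1 and Klf13 (0.96, 0.93 and 0.91) and Nr3c2 to Miga1, Arhgap20 and Pde1c (0.93, 0.92 and 0.92). After each animal's genotype mean was taken off, the correlation stayed at 0.89 for Ace with Ltbp3 and 0.88 with Bgn, and 0.96 for Ece1 with Aplp2, but dropped to 0.63 for Edn1 with Sema3b, 0.51 for Agtr1a with Slc9a2 and 0.46 for Agt with Nt5c1a.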

How the data were processed

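RNA (100 ng) from both atria of 16 mice was hybridised to Affymetrix Mouse Gene 1.0 ST arrays, per the labels. The log2 probe set values were used as the authors deposited them. Affymetrix Expression Console and PLIER are named in the submitters' processing notes. No log base is stated, and base 2 was inferred because the values span 1.16 to 14.08. Array medians differed by at most 0.18, so nothing was rescaled.

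Of 35512 probe sets, 21789 carried 1 gene symbol in the platform annotation and were used. The brightest probe set stood for each gene, and genes under the 30th percentile (4.48 log2) were dropped, leaving 15219. R 4.3.3 and limma 3.58.1 (lmFit, eBayes with a trend) fitted the mean of an animal's arrays, or their difference, over 4 genotypes of 4 animals. Tests were two-sided, with Benjamini-Hochberg adjustment over all kept genes, and were tested on simulated data. An animal's arrays share its number, which is the pairing: their deviations from the group means correlated at a median of 0.05 by labelled side and 0.22 by Bmp10. The within-animal comparisons use this block.

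The members and lists were chosen with earlier results of these data known. Named are the 8 measured members, up to 4 called genes of each list per comparison with the largest change, 3 most similar genes per member, and Bmp10, Stk4 and Nppb. Adipoq was added after its values were seen. The motifs were chosen with the sequences in view. Promoters of 6 members matched a RefSeq start in the table used.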

Additional observations from a re-analysis of the deposited data

Results flagged for a closer look

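Of the results above, 5 differed between genotypes by a test of the difference itself. Ednrb departed from the sum of the single transgene effects by 0.83 log2, being lowered by dnPI3K and Mst1 together by less than that sum. The Agt difference between the 2 atria of an animal, ordered by Bmp10, changed by -0.64 log2 from Ntg to Mst1. The Ace difference between the atria, negative in all genotypes, was nearer to 0 in dnPI3K-Mst1 than in Ntg by 0.73 log2 and than in dnPI3K by 0.97, and nearer in Mst1 than in dnPI3K by 0.79. No animal stood apart by Dixon's test in any of 64 groups of 4 animals examined.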

How the results depend on the processing

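No called difference changed sign under the alternatives run. All 6 calls in Mst1 against Ntg held under 32 other settings, as did those of Edn1, Ace, Agt, Agtr1a and Ednrb in dnPI3K-Mst1 against Ntg, while Nr3c2 there was lost on arrays labelled left (-0.40, adjusted p = 0.061). Counts of the 8 genes called moved as follows, and the cause was not tested. On arrays labelled left only they were 0 for dnPI3K against Ntg, 0 for the double transgenic animals against Mst1 and 0 for the departure from a sum. On arrays labelled right only they were 1 in dnPI3K-Mst1 against Mst1 and 0 for the departure. In dnPI3K-Mst1 against Mst1 1 was called on arrays with the higher Bmp10 and 2 with only those genotypes fitted. Array weights gave 2 for the departure, 1 for right minus left over the genotypes, 5 and 2 between Bmp10-ordered atria in Mst1 and dnPI3K-Mst1, and 3 and 2 for the change of that difference from Ntg in Mst1 and dnPI3K-Mst1, and quantile normalization and a filter at the 50th percentile each gave 2 for that change in Mst1. Without the 4 animals with an array apart, counts were 0 for right minus left in dnPI3K and 1 each between Bmp10-ordered atria in dnPI3K and in Mst1. With no replicate block, that is without pairing an animal's arrays, right minus left over the genotypes gave 1 gene (Edn1, 0.51, adjusted p = 0.046). The animal as a random replicate block ended the Agt call in dnPI3K-Mst1 against Mst1 (adjusted p = 0.056) and no other. Leaving out 1 animal at a time, counts were 6 to 6 in Mst1, 3 to 3 in dnPI3K and 6 to 7 in dnPI3K-Mst1 against Ntg. They were 3 to 5 in dnPI3K-Mst1 against Mst1, 4 to 6 against dnPI3K, 4 to 5 in Mst1 against dnPI3K and 1 to 2 for the departure. By labelled side they were 0 to 2 over the genotypes and 0 to 2 in dnPI3K. Between Bmp10-ordered atria they were 3 to 3 over the genotypes, 2 to 5 in Ntg, 1 to 2 in dnPI3K, 1 to 3 in Mst1 and 0 to 2 for the change from Ntg to Mst1. Over all genes, calls in dnPI3K-Mst1 against Mst1 ranged from 74 to 1686 and in dnPI3K against Ntg from 105 to 1013. With 4 animals a group and no scan data, precision rests on their number.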
